A study of Mus musculus with 6 samples.

Results

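Cells make cholesterol from acetyl-CoA in a long chain of enzymes, and 30 genes of that chain, of its control by the sterol regulatory element-binding proteins (SREBPs) and of sterol handling were followed here in intestinal epithelial RNA of Git2-knockout and wild-type mice. The genes were chosen by symbol from the pathway, with earlier results of these data known. They comprise 7 early mevalonate steps, 11 late sterol steps, 5 SREBP control genes and 2 genes of cytosolic acetyl-CoA and acetoacetyl-CoA supply. The others are 3 genes of sterol uptake, transfer and esterification and 2 of the liver X receptor (LXR) axis. All 30 were found among the 18159 genes of the table, and all 30 were expressed enough to be tested. RNA came from 3 libraries titled Git2-knockout and 3 titled wild type, described as intestinal epithelial cells and, in the design text, as enteroids (epithelial organoids) of mice aged 12 days. The genotype field of the first group reads knockdown where the titles read knockout. The sources used here do not give the strain, the altered part of Git2, or whether each library was a separate animal or culture. The p-values therefore reflect the spread among the 6 libraries alone, and that spread may be technical.

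The early steps condense acetyl units into mevalonate and convert it into isoprenyl diphosphates, which also feed protein prenylation and ubiquinone. The late steps join farnesyl units into squalene, close the sterol ring and trim it to cholesterol. When membranes of the endoplasmic reticulum run low in sterol, the escort protein Scap carries SREBPs to the Golgi, where proteases release the active factors. With sterol present, Insig proteins hold the complex back. The small intestine is a site of sterol synthesis and also absorbs sterols, through Npc1l1 at the brush border.

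The libraries held 16284414 to 16837158 estimated reads in Git2-knockout and 18753649 to 19106581 in wild type, and a member gene had between 164 and 15231 of them in a library. Git2-knockout replicate 1 stood apart from its group, with a chi-square per degree of freedom of 7.16 and 5.31 against the other Git2-knockout libraries, which gave 1.957 between themselves. Wild-type pairs gave 1.60 to 2.87. Git2 itself was at 17.4, 15.5 and 16.8 CPM (counts scaled to library size, with TMM factors) in the libraries titled Git2-knockout and at 22.2, 23.7 and 22.7 CPM in wild type. It fell by 0.47 on the log2 scale (edgeR, SE 0.07, Benjamini-Hochberg adjusted p = 4.44e-05) and was still detected, so its level does not check the genotype. Epithelial markers were abundant, with Epcam at 2509 ± 90.8 CPM in Git2-knockout and 2495 ± 15.1 CPM in wild type (SD, n = 3 each). Of 10 epithelial markers 0 rose and 8 fell, with a median log2 fold change of -0.24. Their summed level was 12994.5 to 13098.2 TPM in Git2-knockout against 13542.9 to 14059.4 TPM in wild type. Of 12 enterocyte markers 1 rose and 10 fell, and their summed level was 31506 to 32546 TPM in Git2-knockout against 44156 to 44745 TPM in wild type. Of 12 tested fibroblast and smooth muscle markers 11 rose and 0 fell, with summed levels of 95.3 to 104 TPM in Git2-knockout against 33.3 to 36.8 TPM in wild type, and of 10 endothelial markers 9 rose and 0 fell, with 42.3 to 48.1 TPM in Git2-knockout against 18.4 to 18.9 TPM in wild type. TPM is a level per transcript length, scaled to the library. Of 5 tested erythroid markers 4 rose and 0 fell, with 302 to 329 TPM in Git2-knockout against 83.2 to 87.4 TPM in wild type. Of the markers in these lists 0 were without reads in all libraries. Among all genes tested 29.6% rose and 27.4% fell. The part of cell composition in the results below was not tested, and in bulk RNA fewer cells of a type and less RNA per cell cannot be told apart.

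Cholesterol genes were split between higher and lower levels in Git2-knockout. In the quasi-likelihood test of edgeR, with 0.05 as the limit on the adjusted p, 13 of the 30 genes rose, 7 fell and 10 did not pass. Without Git2-knockout replicate 1, 15 rose and 9 fell, where 4082 and 4261 of all 13814 genes then tested did. With all 6 libraries, 29.6% of the 13558 genes tested rose and 27.4% fell by the same rule, so calls in each direction were common throughout. In CPM the groups did not overlap in 14 members that were higher and 8 that were lower, where all genes gave 32.3% and 30.6%. The median log2 fold change was 0.09 over the members and 0.02 over all genes tested. Changes were modest. The fitted values ran from -0.54 (Nr1h3) to 0.78 (Idi1), and only Idi1 and Hmgcs1 changed by at least 1.5-fold. All 30 lay between the 5th and the 95th percentile of all genes, -0.55 and 0.86.

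**Figure D1:**
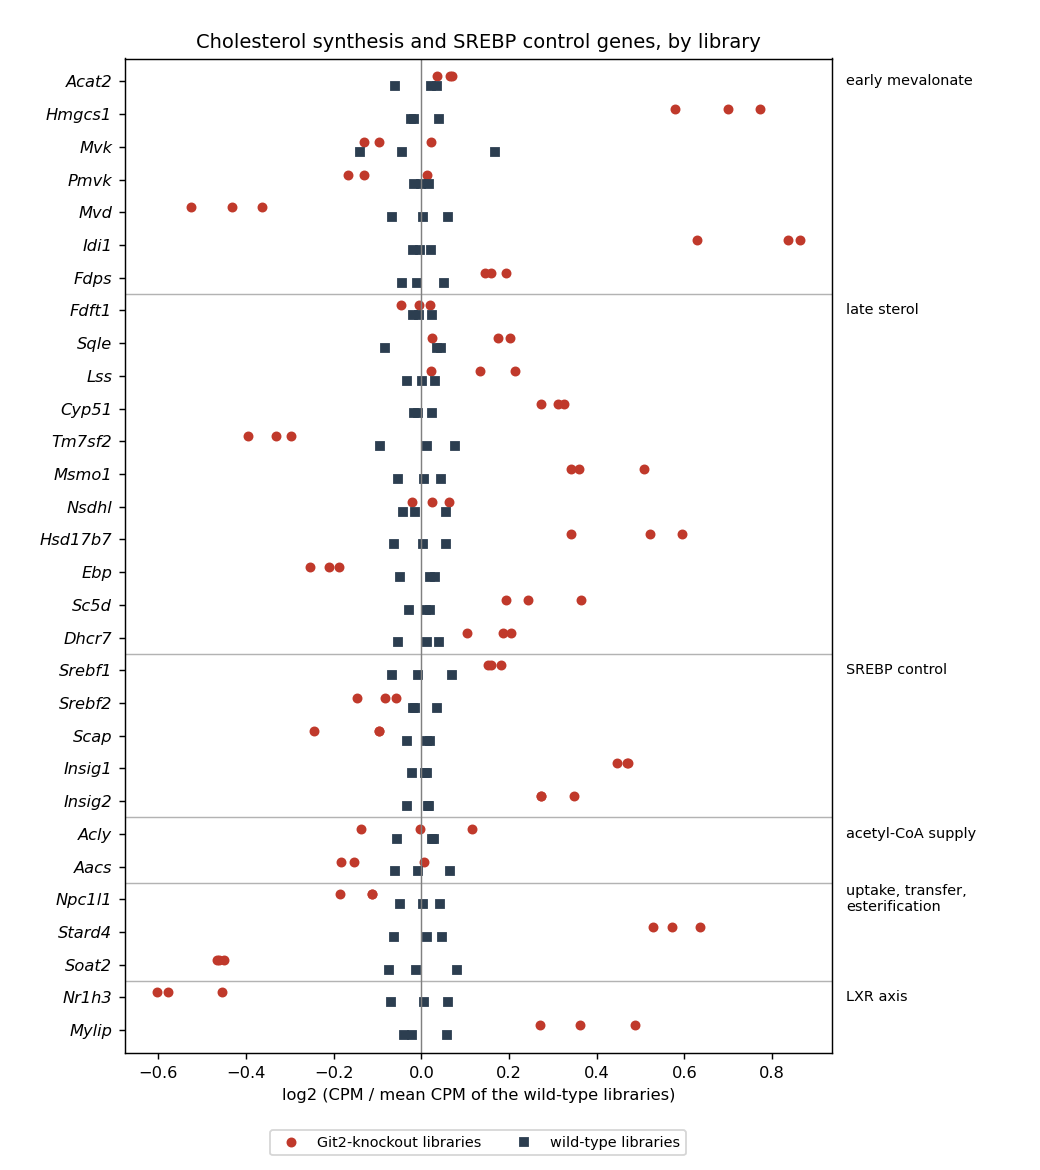
Each point is 1 library's CPM for a gene as a log2 ratio to the mean of the wild-type libraries (x axis), with genes grouped by role down the page, Git2-knockout as red circles above and wild-type as dark squares. Idi1, Hmgcs1, Stard4, Hsd17b7 and Insig1 lie right of their wild-type libraries without overlap, and Nr1h3, Soat2 and Mvd lie left of theirs.

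Within the mevalonate chain, Hmgcs1 and Idi1 were the members that rose most, while Mvd, which acts between them, fell. Hmgcs1 encodes the cytosolic HMG-CoA synthase. It was at 429, 375 and 408 CPM in Git2-knockout and at 258, 247 and 248 CPM in wild type. Every Git2-knockout library stood above every wild-type library, and the log2 fold change was 0.68 (edgeR, SE 0.05, Benjamini-Hochberg adjusted p = 9.72e-09). Idi1, the isomerase that sets the balance of the 5-carbon building blocks, was at 174, 148 and 171 CPM in Git2-knockout and at 95.4, 97.0 and 94.3 CPM in wild type. Here too the groups were apart, with a log2 fold change of 0.78 (edgeR, SE 0.06, Benjamini-Hochberg adjusted p = 2.11e-08). Mvd, the mevalonate diphosphate decarboxylase that makes the substrate of Idi1, was at 24.6, 23.1 and 25.85 CPM in Git2-knockout and at 31.7, 33.3 and 34.65 CPM in wild type. All Git2-knockout libraries lay below, and Mvd fell by 0.44 on the log2 scale (edgeR, SE 0.06, Benjamini-Hochberg adjusted p = 2.23e-05).

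Fdps, the farnesyl diphosphate synthase that closes the early chain, rose less. Its levels were 91.6, 90.8 and 93.8 CPM in Git2-knockout and 79.6, 85.1 and 81.5 CPM in wild type, a log2 fold change of 0.17 (edgeR, SE 0.05, Benjamini-Hochberg adjusted p = 0.00582). Its call was lost without Git2-knockout replicate 3 (edgeR adjusted p = 0.0513). The kinases Mvk and Pmvk, which phosphorylate mevalonate in turn, did not pass, with log2 fold changes of -0.07 and -0.09 (edgeR adjusted p = 0.587 and 0.190). Without Git2-knockout replicate 1 Pmvk fell by 0.175 (edgeR adjusted p = 0.0102). It rose by 0.17 (edgeR adjusted p = 0.00954) once trends with transcript length and GC content, described below, were removed. Acat2, the thiolase that makes acetoacetyl-CoA, lay at 0.06 (edgeR adjusted p = 0.315), with 76.5 to 78.4 CPM in Git2-knockout and 71.6 to 76.5 CPM in wild type, groups that nearly touch. Acat2 passed as a rise on the log2(TPM + 1) scale (0.22, limma adjusted p = 0.00189), with the length trend removed (0.10, edgeR adjusted p = 0.0448) and with both trends removed (0.11, 0.0316).

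Some of these values rest on reads that could be shared between genes. Of the 50-base words of the longest annotated coding transcript, 45.9% of those of Acat2 also occur in Acat3 and 13.2% on the opposite strand in Tcp1. Of the Fdps words 77.3% occur in another gene model, Gm43738, of the Idi1 words 21.3% in the pseudogene Gm13502, of the Hmgcs1 words 13.6% on the opposite strand in Gm48342, and of the Scap words 13.1% on the opposite strand in 5830462I19Rik. Fdft1 shares 19.9% on the opposite strand with the abundant protease gene Ctsb. The words shared with Acat3, Gm43738 and Gm13502 lie on the same strand, so a strand setting would not separate them. For the opposite-strand words strand matters, and the sources used here do not say whether the counting used it. Gm43738, Gm13502, Gm48342 and 5830462I19Rik were not among the genes with deposited values, whereas Acat3, Tcp1 and Ctsb were. These members are uncertain to that extent.

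The promoter windows of 4 SREBP pathway genes are shown here, 3 that rose by the main test and with every alternative tried (Hmgcs1, Idi1 and Insig1) and Mvd, which fell with every one. Capitals mark the NF-Y box CCAAT on either strand (ATTGG on the minus strand) and the sterol element CACNCCAC on either strand, which the longer element TCACNCCAC contains. Each window runs from 250 bases before to 50 bases after an annotated start, 5′ to 3′, from RefSeq on GRCm38.p6.
Hmgcs1, chr13:119690101-119690400, plus strand: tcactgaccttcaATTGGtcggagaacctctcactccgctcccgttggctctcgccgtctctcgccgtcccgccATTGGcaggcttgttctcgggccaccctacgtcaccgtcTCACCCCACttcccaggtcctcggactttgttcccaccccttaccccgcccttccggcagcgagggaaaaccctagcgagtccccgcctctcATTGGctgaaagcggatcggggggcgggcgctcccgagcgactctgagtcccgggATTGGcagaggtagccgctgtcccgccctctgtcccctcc
Idi1, chr13:8885356-8885655, plus strand: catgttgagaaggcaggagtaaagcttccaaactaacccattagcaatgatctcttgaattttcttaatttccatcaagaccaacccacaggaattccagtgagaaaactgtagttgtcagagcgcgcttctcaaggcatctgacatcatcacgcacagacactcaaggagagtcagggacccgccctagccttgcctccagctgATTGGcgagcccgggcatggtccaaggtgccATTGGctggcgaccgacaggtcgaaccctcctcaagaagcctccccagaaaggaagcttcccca
Insig1, chr5:28071162-28071461, plus strand: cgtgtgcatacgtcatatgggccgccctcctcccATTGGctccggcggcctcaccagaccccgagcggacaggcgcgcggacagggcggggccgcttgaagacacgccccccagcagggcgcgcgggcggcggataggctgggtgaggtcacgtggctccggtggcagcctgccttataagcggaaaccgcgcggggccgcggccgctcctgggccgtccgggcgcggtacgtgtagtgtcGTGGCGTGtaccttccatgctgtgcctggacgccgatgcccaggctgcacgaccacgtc
Mvd, chr8:122443373-122443672, minus strand: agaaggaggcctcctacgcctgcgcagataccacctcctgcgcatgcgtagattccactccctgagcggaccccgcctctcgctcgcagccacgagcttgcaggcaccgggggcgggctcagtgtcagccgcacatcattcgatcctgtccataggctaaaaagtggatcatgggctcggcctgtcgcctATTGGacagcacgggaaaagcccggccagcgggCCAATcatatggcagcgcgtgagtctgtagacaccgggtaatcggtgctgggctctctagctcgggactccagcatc

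NF-Y is a factor that binds CCAAT boxes and is known to act beside SREBPs on sterol gene promoters. Of the 30 members 25 matched a window, and 21 of the 25 (84%) held a CCAAT box in at least 1 window, where 41.1% of all 27025 genes with a window did. Those 27025 were not limited to genes tested here, whereas every member was expressed enough to be tested, so the sets are unlike. The box was present for 11 of 11 members that rose, 4 of 6 that fell and 6 of 8 that did not pass, and for 9 of 9 late sterol genes. Hmgcs1 alone held TCACNCCAC, found in 1.44% of all genes, and its first base without the T lies 136 bases before the start. CACNCCAC was present for 3 of the 25, Hmgcs1, Insig1 and Acat2, against 7.12% of all genes. The palindrome TCACGTGA (1.12% of all genes) and the LXR element, a direct repeat of AGGTCA with a gap of 4 bases (0.0148%), were found in 0 of the 25. Genes with several windows have more chances of a match, and a match describes letters in a window and is not a binding site.

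Among the late sterol steps 5 genes rose, 2 fell and 4 did not pass, where 29.6% of all genes rose and 27.4% fell. Cyp51, the lanosterol demethylase, was at 135, 139 and 140 CPM in Git2-knockout and at 114, 111 and 110.5 CPM in wild type (log2 fold change 0.30, edgeR, SE 0.04, Benjamini-Hochberg adjusted p = 1.40e-05). Msmo1, the C4-methyl sterol oxidase, was at 126, 114 and 112 CPM in Git2-knockout and at 89.1, 91.6 and 85.6 CPM in wild type (0.40, edgeR, SE 0.05, Benjamini-Hochberg adjusted p = 6.57e-06). Hsd17b7, the sterol 3-ketoreductase, was at 49.95, 47.5 and 41.9 CPM in Git2-knockout and at 34.4, 33.2 and 31.7 CPM in wild type (0.49, edgeR, SE 0.07, Benjamini-Hochberg adjusted p = 1.10e-05). In these 3 genes no wild-type library reached a Git2-knockout library. Sc5d, the lathosterol oxidase, and Dhcr7, which makes cholesterol from 7-dehydrocholesterol, rose by 0.27 and 0.17 (edgeR adjusted p = 1.76e-04 and 0.0117). The Dhcr7 call was lost without Git2-knockout replicate 2 or wild-type replicate 3 (largest edgeR adjusted p = 0.0687) and by DESeq2 (adjusted p = 0.0894). With the GC trend alone removed Sc5d lay at -0.0032 (edgeR adjusted p = 0.962).

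Tm7sf2 and Ebp went the other way. Tm7sf2, a sterol C14-reductase, was at 12.4, 13.0 and 13.3 CPM in Git2-knockout and at 15.3, 16.5 and 17.2 CPM in wild type, and it fell by 0.34 (edgeR, SE 0.08, Benjamini-Hochberg adjusted p = 0.00195). Ebp, the sterol isomerase, was at 42.3, 41.6 and 40.4 CPM in Git2-knockout and at 46.5, 49.2 and 48.8 CPM in wild type, and it fell by 0.22 (edgeR, SE 0.05, Benjamini-Hochberg adjusted p = 0.00196). Neither gene overlapped between the groups. The steps around squalene did not pass the test. Sqle, the squalene epoxidase and a control point of the pathway, lay at 0.14 (edgeR adjusted p = 0.0560), with 57.2, 64.7 and 63.4 CPM in Git2-knockout and 53.0, 58.0 and 57.6 CPM in wild type, and the groups overlapped. The cyclase Lss lay at 0.12, the squalene synthase Fdft1 at -0.01 and the dehydrogenase Nsdhl at 0.02 (edgeR adjusted p = 0.0736, 0.854 and 0.763). Without Git2-knockout replicate 1 Sqle (0.16) and Lss (0.15) passed (edgeR adjusted p = 0.00506 and 0.0142). Nsdhl passed as a rise on the log2(TPM + 1) scale (0.18, limma adjusted p = 0.0195) and as a fall with the GC trend removed (-0.15, edgeR adjusted p = 0.0377).

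**Figure D2:**
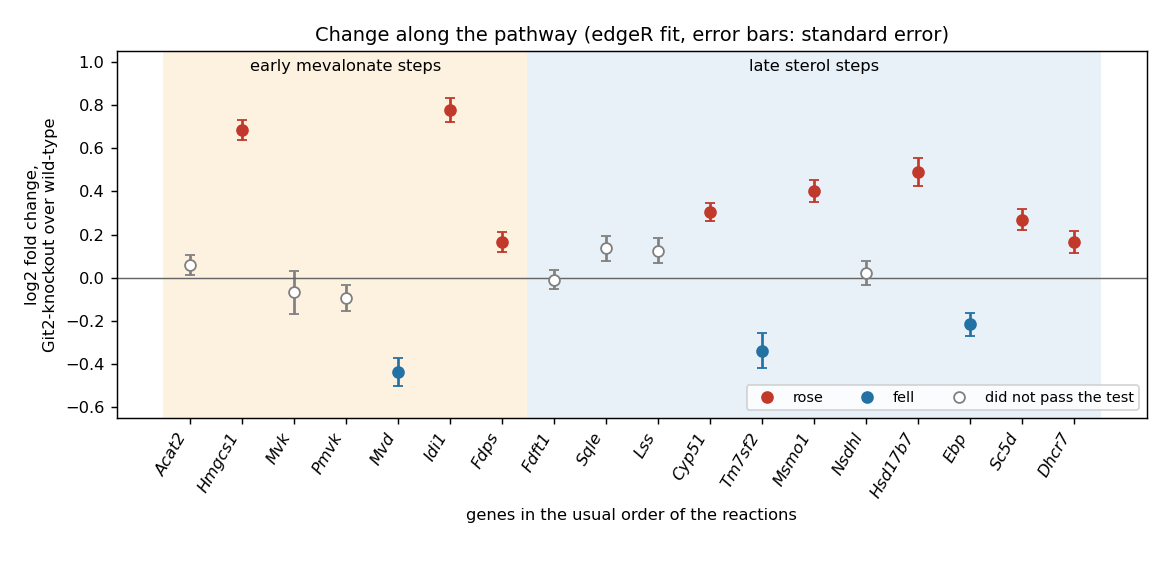
Log2 fold change of Git2-knockout over wild-type (y axis, points with standard error bars) for the 18 enzymes in the usual order of the reactions (x axis), early steps on the left and late steps on the right. Filled red points rose, filled blue points fell and open points did not pass the test; Hmgcs1 and Idi1 stand highest and Mvd lowest.

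Early and late steps did not separate. The median log2 fold change was 0.06 over the 7 early genes and 0.14 over the 11 late genes, and each branch held members that rose, fell and did not pass. Taken library by library against the wild-type mean, the late median minus the early median was -0.01, 0.13 and 0.10 in Git2-knockout and 0.05, -0.01 and -0.01 in wild type, ranges that overlap. The early genes spread more widely, from -0.44 to 0.78, than the late genes, from -0.34 to 0.49. With the length and GC trends described below removed, the order of the medians turned, to 0.17 for early and 0.07 for late genes. In that setting 5 early genes rose and 1 fell, and 3 late genes rose and 0 fell. Of all genes 17.5% rose and 26.2% fell there. Summed over the branch, early transcripts amounted to 728 to 769 TPM in Git2-knockout against 529 to 537 TPM in wild type, and late transcripts to 691 to 706 TPM in Git2-knockout against 547 to 563 TPM in wild type. Hmgcs1, Idi1 and Fdps made up 98.2% of the early difference in TPM, and Msmo1, Sc5d and Cyp51 72.1% of the late difference. TPM values of all genes tested were shifted upward in Git2-knockout by a median of 0.14 on the log2 scale.

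On the control side, the Insig genes rose, and the SREBP factors and their escort did not move together. Insig1, the sterol-dependent anchor and itself a known SREBP target, was at 271, 276 and 275 CPM in Git2-knockout and at 201, 200 and 196 CPM in wild type. The libraries within a group were close together and the groups far apart, with a log2 fold change of 0.46 (edgeR, SE 0.04, Benjamini-Hochberg adjusted p = 6.82e-08). Insig2, the second anchor, was at 40.4, 38.3 and 38.3 CPM in Git2-knockout and at 32.0, 31.0 and 32.1 CPM in wild type (0.30, edgeR, SE 0.05, Benjamini-Hochberg adjusted p = 2.12e-04). Srebf1, the factor known mainly for fatty acid genes, rose by 0.16 (edgeR adjusted p = 0.00386), with 255, 260.5 and 256 CPM in Git2-knockout and 219, 228.5 and 241 CPM in wild type. With the length trend alone removed its log2 fold change was 6.61e-05 (edgeR adjusted p = 0.999), and with length and GC trends removed it was 0.24 (2.06e-06). The counts are per gene, so the Srebf1 isoforms cannot be told apart.

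Srebf2, the factor known mainly for sterol genes, did not pass. It was at 162, 172 and 169 CPM in Git2-knockout and at 177, 177 and 183 CPM in wild type, lower without overlap, with a log2 fold change of -0.10 (edgeR, SE 0.04, Benjamini-Hochberg adjusted p = 0.0641). It passed as a fall by DESeq2 (-0.12, adjusted p = 0.0414), with RLE or upper quartile scaling (edgeR adjusted p = 0.0354 and 0.0187), and without Git2-knockout replicate 1 or 2 (edgeR adjusted p = 0.0205 and 0.0324). The trends described below moved it in opposite directions, to -0.29 with the length trend removed (edgeR adjusted p = 3.62e-07) and 0.06 with the GC trend removed (0.208), and to -0.05 with both removed (0.190). Scap fell by 0.14 (edgeR adjusted p = 0.0275), with 57.9, 64.2 and 64.1 CPM in Git2-knockout and 67.1, 69.2 and 69.5 CPM in wild type. Its call was lost without wild-type replicate 2 or wild-type replicate 3 (largest edgeR adjusted p = 0.0867) and with library totals alone as scaling (0.0884). Scap lay at 0.03 with the GC trend removed (edgeR adjusted p = 0.636) and fell by 0.30 with the length trend removed (5.80e-06). Of the cytosolic supply genes, the citrate lyase Acly lay at -0.01 and the acetoacetyl-CoA synthetase Aacs at -0.11 (edgeR adjusted p = 0.948 and 0.189). With the length trend removed they fell by 0.18 and 0.19 (edgeR adjusted p = 0.00146 and 0.0175).

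Genes that move and store sterols also went in different directions. Stard4, a cytosolic sterol carrier known as an SREBP target, was at 449, 483 and 462 CPM in Git2-knockout and at 314, 321 and 298 CPM in wild type, a log2 fold change of 0.58 (edgeR, SE 0.04, Benjamini-Hochberg adjusted p = 1.84e-08). Soat2, the enterocyte enzyme that esterifies cholesterol for lipoproteins, was at 52.5, 52.9 and 52.3 CPM in Git2-knockout and at 68.6, 71.7 and 76.5 CPM in wild type. It fell by 0.46 (edgeR, SE 0.05, Benjamini-Hochberg adjusted p = 1.85e-06). The groups did not overlap for Stard4 or Soat2. Npc1l1, the brush border sterol importer, was at 700, 736 and 736 CPM in Git2-knockout and at 819, 797 and 769 CPM in wild type, a fall of 0.14 (edgeR, SE 0.04, Benjamini-Hochberg adjusted p = 0.00682). In TPM the groups overlapped for Npc1l1, at 340 to 376 TPM in Git2-knockout and 341 to 370 TPM in wild type, and its log2 fold change was 0.02 on the log2(TPM + 1) scale. With the GC trend removed it lay at -0.06 (edgeR adjusted p = 0.262), with the length trend removed it fell by 0.32 (5.16e-09), and with both removed it fell by 0.16 (6.13e-05). Soat2 and Npc1l1 are enterocyte genes, and the summed enterocyte markers given above were lower in the same libraries.

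Of the LXR axis, Nr1h3, which encodes the sterol-sensing nuclear receptor LXR-alpha, was the member that fell most. It was at 24.6, 26.8 and 24.1 CPM in Git2-knockout and at 35.0, 36.8 and 38.3 CPM in wild type, and fell by 0.54 (edgeR, SE 0.06, Benjamini-Hochberg adjusted p = 1.91e-06). Mylip, a known LXR target whose product marks lipoprotein receptors for breakdown, was at 34.1, 29.3 and 31.2 CPM in Git2-knockout and at 25.3, 23.9 and 23.6 CPM in wild type. It rose by 0.38 (edgeR, SE 0.07, Benjamini-Hochberg adjusted p = 1.66e-04), opposite to the receptor. Neither gene overlapped between the groups.

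**Figure D3:**
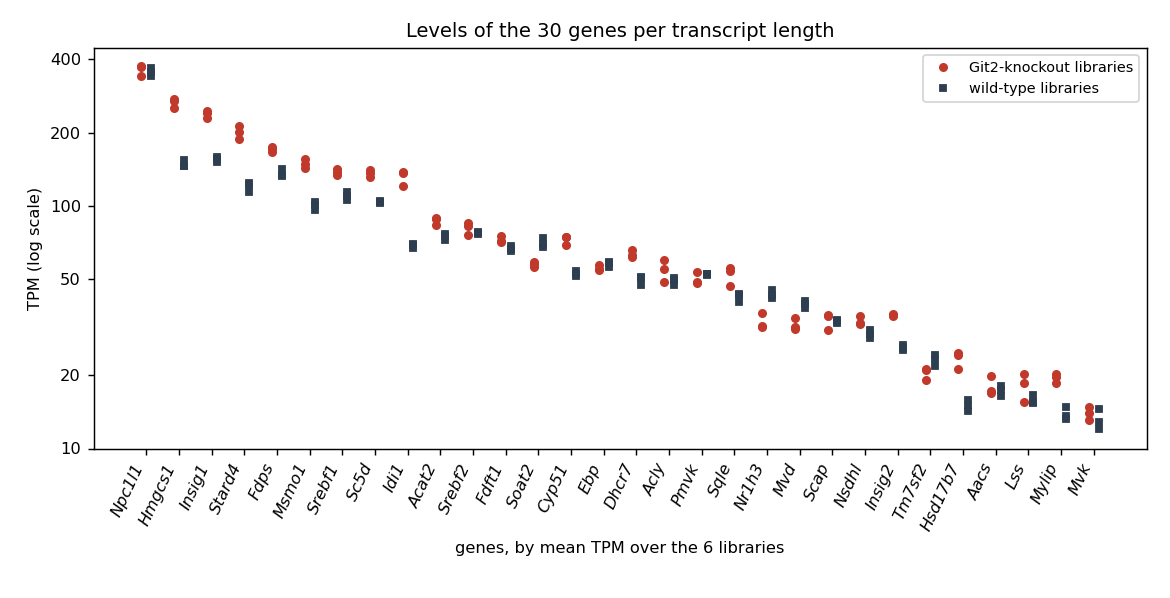
TPM of each of the 30 genes in every library (y axis, log scale), ordered by mean TPM over the 6 libraries (x axis), with Git2-knockout libraries as red circles left of the wild-type libraries as dark squares. Npc1l1 was the most abundant and Mvk the least, and the Hmgcs1, Insig1, Stard4 and Idi1 libraries of Git2-knockout lie above those of wild type.

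Per transcript length the members ranged from Mvk, at 13.1 to 14.9 TPM in Git2-knockout and 12.0 to 14.6 TPM in wild type, up to Npc1l1. Hmgcs1 was at 252 to 275 TPM in Git2-knockout and 145 to 153.5 TPM in wild type, and was 34.7% to 36.3% of the early transcripts in Git2-knockout against 27.1% to 29.0% in wild type. Insig1 was 6.41 to 6.92 times as abundant as Insig2 in Git2-knockout and 5.83 to 6.13 times in wild type. The ratio of Srebf1 to Srebf2 was 1.67 to 1.77 in Git2-knockout and 1.37 to 1.46 in wild type. These ratios are formed within a library, and their groups did not overlap.

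The changes of the members varied with the base composition of their transcripts, and the part of composition in them was not tested. Across the 30 genes, Spearman's rho between log2 fold change and transcript GC content was -0.79, and across the 13375 tested genes with a GC value it was -0.49. The members share the same 6 libraries, so this is a description. Members that rose had a median GC content of 46.0% (41.9% to 58.4%) and those that fell 55.2% (50.9% to 59.1%). With transcript length the rho was 0.33 over the members and 0.49 over all genes with a length. After removal of length and GC trends across all genes, the rho with GC was -0.00089 over all genes and -0.51 over the members.

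With length and GC trends removed, 13 members rose and 4 fell, where 17.5% of all genes rose and 26.2% fell by that rule. Hmgcs1 then stood at 0.41, Idi1 at 0.51, Insig1 at 0.42, Msmo1 at 0.35 and Stard4 at 0.22 on the log2 scale, and Mvd at -0.18, Soat2 at -0.29 and Nr1h3 at -0.32. Cyp51 (0.08, edgeR adjusted p = 0.0536), Sc5d (0.07, 0.150), Tm7sf2 (-0.19, 0.0574), Ebp (-0.10, 0.0680) and Scap (-0.06, 0.271) no longer passed. Fdps (0.34, edgeR adjusted p = 3.06e-07) and Dhcr7 (0.27, 3.92e-05) were larger than before. On the TPM scale 17 members rose and 4 fell by limma-trend on log2(TPM + 1), where 42.1% and 14% of all genes did. The fall of Ebp did not pass there (limma adjusted p = 0.288).

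**Figure D4:**
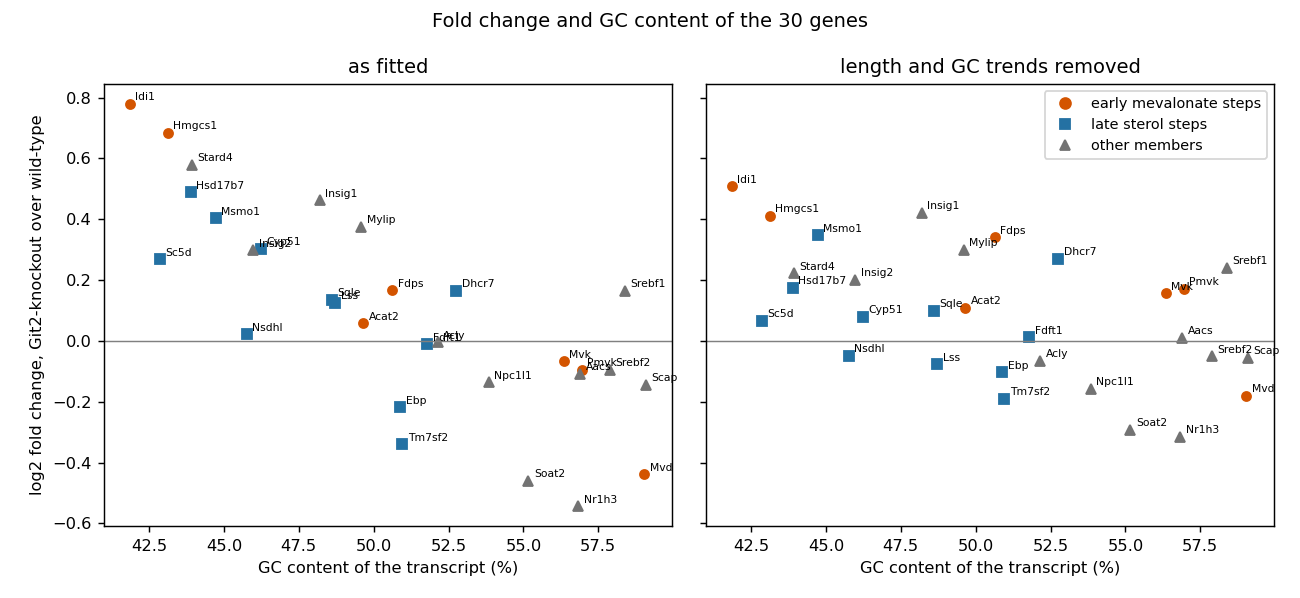
Log2 fold change of Git2-knockout over wild-type (y axis) against GC content of the longest transcript (x axis) for the 30 genes, as fitted on the left and with length and GC trends removed on the right; circles are early steps, squares late steps and triangles other members. Idi1, at the GC-poor end, stands highest in both panels at 0.78 and 0.51, and the values lie closer together on the right.

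Of 11 partners of SREBP processing 6 rose and 1 fell, with a median log2 fold change of 0.21, beside the 29.6% and 27.4% of all genes given above. The difference from other genes was not tested. Mbtps2, the membrane protease that makes the last cut of SREBPs, was at 36.4 ± 3.12 CPM in Git2-knockout and 21.1 ± 1.42 CPM in wild type (SD, n = 3 each), a log2 fold change of 0.78 (edgeR, SE 0.07, Benjamini-Hochberg adjusted p = 2.19e-07). Erlin1 (0.38) and Erlin2 (0.21), which bind Insig and SREBP complexes, and the ubiquitin ligases Rnf139 (0.33) and Rnf145 (0.39) rose. Pgrmc1 (0.04) did not pass. Mbtps1, of the same list and named after its value was seen, did not pass either (-0.03, edgeR adjusted p = 0.624). With length and GC trends removed the median was 0.00023, with 5 rising and 1 falling, where 17.5% of all genes rose and 26.2% fell. Mbtps2 then lay at 0.29 (edgeR adjusted p = 7.79e-04), Erlin2 at 0.00023 and Rnf139 at -0.08, and Mbtps1 fell by 0.13 (0.00889).

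Of 15 tested fatty acid synthesis genes known as SREBP-1 targets 7 rose and 4 fell, with a median of 0.16. Among all genes tested 29.6% rose and 27.4% fell, with a median of 0.02. The desaturase Scd2 was at 995 ± 41.7 CPM in Git2-knockout and 752 ± 13.0 CPM in wild type (SD, n = 3 each), a log2 fold change of 0.40 (edgeR, SE 0.04, Benjamini-Hochberg adjusted p = 3.17e-07). The elongase Elovl6 (0.41) and the acyltransferase Gpam (0.35) rose, and the citrate carrier Slc25a1 (-0.32) and Mid1ip1 (-0.33) fell. With length and GC trends removed, 3 rose and 3 fell, where 17.5% and 26.2% of all genes did. Scd2 rose by 0.23 there (edgeR adjusted p = 1.03e-07), and Elovl6 (0.03), Gpam (0.12), Slc25a1 (-0.06) and Mid1ip1 (-0.14) did not pass (edgeR adjusted p = 0.578, 0.0952, 0.201 and 0.132). Of 12 tested genes of the nonsterol isoprenoid branch 3 rose and 1 fell, with a median of -0.08. Those that rose were Ggps1 (0.37), which makes geranylgeranyl diphosphate, Nus1 (0.35) of dolichol synthesis and the prenyltransferase subunit Pggt1b (0.34), and the farnesyltransferase subunit Fntb fell (-0.18). Rabggtb, a subunit of the Rab prenyltransferase, lay at -0.09 (edgeR adjusted p = 0.176). With length and GC trends removed 0 rose and 1 fell, where 17.5% and 26.2% of all genes did. That gene was Pdss1 (-0.33, edgeR adjusted p = 0.00209), named after its value was seen, and Fntb lay at -0.05 (0.562). Ggps1, Nus1 and Pggt1b then lay at -0.01, -0.03 and -0.13. In TPM Fntb lay at 0.0059.

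Sterol exporters of the brush border fell. Abcg5 and Abcg8 form the dimer that returns sterols to the lumen and are known LXR targets. Abcg5 was at 222 ± 1.74 CPM in Git2-knockout and 318 ± 4.65 CPM in wild type, and Abcg8 at 228 ± 11.7 CPM in Git2-knockout and 299 ± 4.23 CPM in wild type (SD, n = 3 each). They fell by 0.52 and 0.39 (edgeR, SE 0.04 each, Benjamini-Hochberg adjusted p = 1.81e-08 and 1.45e-06). The 12 enterocyte markers had a median log2 fold change of -0.54 in the same libraries. The part of cell composition in the fall of the exporters was not tested. Of the 10 genes in the list of LXR targets and sterol efflux 2 rose, Abcg1 (0.62) and Apoe (0.15), and 3 fell, these exporters and the receptor Nr1h2 (-0.33), with a median of -0.02. By the same rule 29.6% of all genes tested rose and 27.4% fell. Smpdl3a, the most abundant of the list, lay at 0.03 (edgeR adjusted p = 0.535). With length and GC trends removed 2 rose and 2 fell, where 17.5% and 26.2% of all genes did. Abcg5 then lay at -0.47 and Abcg8 at -0.37, and Nr1h2 (-0.08, edgeR adjusted p = 0.0812) did not pass.

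Of 15 other genes of intracellular sterol transport and esterification 7 rose and 3 fell, with a median of 0.09. By the same rule 29.6% of all genes tested rose and 27.4% fell. The lysosomal membrane protein Lamp2 (0.31), the sterol transfer protein Gramd1c (0.46), Osbpl1a (0.32) and the lipoprotein receptor Scarb1 (0.67) rose, and the late endosomal Stard3 (-0.35) and Anxa2 (-0.13) fell. After removal of length and GC trends 3 rose and 4 fell, where 17.5% and 26.2% of all genes did. Lamp2 (-0.05), Gramd1c (0.15) and Anxa2 (0.05) then did not pass (edgeR adjusted p = 0.109, 0.0974 and 0.150). On the log2(TPM + 1) scale 11 rose and 1 fell, where 42.1% and 14% of all genes did, and Anxa2 lay at 0.04. Of 8 tested other sterol synthesis genes 1 rose, the C14-reductase Lbr (0.21; -0.03 with length and GC trends removed), and 3 fell. Those were Por (-0.36), Cyb5a (-0.31) and Cyb5r3 (-0.20), which pass electrons to sterol and other oxidases. Once length and GC trends were removed 2 fell, Por (-0.17) and Cyb5b (-0.29), the last named after its value was seen, and Lbr, Cyb5a (-0.05) and Cyb5r3 (-0.03) did not pass (edgeR adjusted p = 0.612, 0.308 and 0.607).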

How the data were processed

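Oligo(dT)-selected RNA, per the labels' protocols, of 3 Git2-knockout and 3 wild-type samples was sequenced, and samples were grouped by title. The build GRCm39 and the tools HISAT, Bowtie2 and RSEM stand in the submitters' processing notes. The sources used here give neither the annotation nor the strand setting. The deposited table holds estimated counts, TPM and FPKM values per library, per the file headers. Members and lists were chosen with earlier results of these data known. Estimated counts were rounded and tested in R 4.3.3 with edgeR 4.0.16 (filterByExpr, TMM, robust glmQLFit and glmQLFTest, two-sided, no covariates), with Benjamini-Hochberg adjustment over 13558 genes and a threshold of 0.05. The standard error is the log2 fold change over the square root of F. Alternatives used other scalings and filters, a replicate block, DESeq2 1.42.0, limma 3.58.1 (voom, and trend on log2(TPM + 1) or log2(TPM + 0.1)), each library left out, and loess removal (span 0.5) of transcript length (from counts and FPKM of at least 0.5) and GC (GENCODE M21 transcripts, GRCm38). Simulated counts were run through edgeR, the replicate block, DESeq2, voom, limma-trend on log2 CPM and removal of a length trend. They had the same dispersion for every gene. Removal of GC trends and the TPM fits were not tried on simulated data. Named genes are all members, Git2 and, per pathway list, up to 5 called genes with the smallest p and the 2 most abundant, and, per marker list, up to the 3 most abundant, of which Epcam alone is printed. A few genes chosen this way are not reported here. Ctsb, Tcp1 and Acat3 were added after their overlap was seen. The other marker lists were macrophage genes (2 of 9 tested rose, 1 fell), B cell genes (0 of 6 rose, 6 fell) and stem and cycling cell genes (3 of 12 rose, 5 fell). Of all genes 29.6% rose and 27.4% fell. The labels give no batch or date. Chi-square per degree of freedom ran from 30.1 to 42.8 between groups and was above sampling noise between replicates. That excess does not show separate animals or cultures. Each library was counted as a unit in the tests.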

Additional observations from a re-analysis of the deposited data

How the results depend on the processing

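Of the 20 calls among the 30 members, 11 kept direction and call under all 20 alternatives, the rises of Hmgcs1, Idi1, Msmo1, Hsd17b7, Insig1, Insig2, Stard4 and Mylip and the falls of Mvd, Soat2 and Nr1h3. Members risen numbered 12 to 17 and members fallen 4 to 10 over all alternatives. The 4 fallen were on log2(TPM + 1), on log2(TPM + 0.1) and with length and GC trends both removed. With a library left out they numbered 12 to 15 and 6 to 9. Over all genes, those risen numbered from 2367 of 13558 (both trends removed) to 5712 of 13558 (log2(TPM + 1)). Those fallen numbered from 1880 of 13558 (log2(TPM + 0.1)) to 4261 of 13814 (without Git2-knockout replicate 1). With a library left out, at least 3430 genes rose and 3150 fell (of 13691, without wild-type replicate 3). The same replicate numbers did not pair libraries (correlation of deviations 0.04, -0.0011 and 0.05). With the replicate block 14 members rose and 7 fell, where 3863 and 3578 of all 13558 genes tested did.

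The early median was 0.03 by upper quartile scaling, 0.09 by library totals, 0.22 on log2(TPM + 1), 0.219 on log2(TPM + 0.1), 0.10 with the length trend removed, 0.17 with both trends removed, 0.023 with Fdft1 counted as early, and 0.026 to 0.073 with a library left out. The late median was 0.29 and 0.295 on the TPM scales, 0.055 with the GC trend removed and 0.065 with both removed. Late minus early was -0.0040 with length, -0.010 with GC and -0.11 with both trends removed. The cause was not tested.

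Signs turned mainly in genes that did not pass the test. On log2(TPM + 1) and log2(TPM + 0.1) the values were 0.087 and 0.093 for Mvk, 0.123 and 0.124 for Fdft1, 0.063 and 0.064 for Srebf2, 0.0127 and 0.013 for Scap, 0.141 and 0.143 for Acly, 0.048 and 0.051 for Aacs and 0.02497 and 0.02503 for Npc1l1, where only Fdft1 passed. With the length trend removed they were 0.025 for Mvk, 0.040 for Pmvk and -0.11 for Lss. With the GC trend removed they were 0.066 for Mvk, 0.048 for Pmvk, 0.013 for Fdft1, -0.15 for Nsdhl (which then passed), -0.0032 for Sc5d, 0.062 for Srebf2, 0.031 for Scap, 0.029 for Acly and 0.033 for Aacs. With both removed they were 0.157 for Mvk, 0.172 for Pmvk (which then passed), 0.011 for Fdft1, -0.077 for Lss, -0.048 for Nsdhl and 0.0096 for Aacs. Library totals gave 0.025 for Fdft1 and 0.031 for Acly, upper quartile scaling -0.0061 and DESeq2 -0.00026 for Nsdhl, and a filter of 5 CPM 0.0025 for Acly. With a library left out, Mvk ranged from -0.13 to 0.021, Nsdhl from -0.010 to 0.049 and Acly from -0.081 to 0.031. The lowest member count was 164 reads, in Mvk, where small differences are least detectable.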

Other observations

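The 30 genes together took 0.387% to 0.390% of the estimated reads of the Git2-knockout libraries and 0.329% to 0.335% of those of the wild-type libraries, ranges that do not overlap.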
